A study of Rattus norvegicus with 28 samples.

Results

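The genes of the cell cycle, of DNA replication and of the histones were followed in the rat spinal cord after contusion and after transplantation of neural progenitor cells. Members were taken by gene name from the array annotation, as the names that match cyclins A, B, D and E, cyclin-dependent kinases (CDKs) and their regulators and inhibitors, CDC2, CDC6, CDC7, CDC20, CDC25 and CDC45, the MCM genes, PCNA, the ribonucleotide reductase genes, topoisomerase 2a, the BUB1, aurora, polo and CENP genes, and the clustered histones. The rule used names and no measured value, though it was set with earlier results of these data known. It gave 96 of the 35469 gene names on the array. Roles were assigned by name, so that Aurkaip1 stands with mitosis and Mcm3ap with licensing and replication, whatever their function. The roles held 32 genes of mitosis, 15 of licensing and replication and 18 histones. The others were 14 other CDKs and regulators, 9 genes named for CDK inhibitors and 8 G1 cyclins and kinases. The kinase now called Cdk1 stands on the array under its older name, Cdc2, and no gene name matched Mki67, the common marker of dividing cells.

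Expression was measured on 28 single-colour arrays of adult female Sprague Dawley rats, 4 in each of 7 groups. T0 is labelled as sham, whereas the methods of the study speak of uninjured cord. T1, T2, T4 and T8 are cords taken 1, 2, 4 and 8 weeks after a severe contusion of 250 kdyn at the eighth thoracic level, without cells, and the methods state that such controls received medium alone. T1_NPC received neural progenitor cells (NPCs) right after the contusion and was taken at 1 week, and T2_NPC received them 1 week after the contusion and was taken at 2 weeks. The cells were grown from cords of adult rats that had themselves been injured and expanded as neurospheres with EGF and basic FGF. Donor and host were both rat, and their transcripts cannot be told apart on the array. Each sample was a segment of about 1.5 cm that spanned the lesion, without dura mater, and the labels place FK-506, an immunosuppressant, from the day before transplantation to the end. The study describes the 4 samples of a group as biological replicates, and p-values measure the spread between them.

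A cell that divides passes from G1, in which D cyclins with Cdk4 and Cdk6 lead to release of E2F factors, through S phase, in which the licensed MCM helicase opens DNA and histones are made for the new chromatin, to mitosis, which is driven by cyclin B with Cdk1 and ordered by the polo and aurora kinases and by the spindle checkpoint. Inhibitors of the Cip/Kip and INK4 families hold CDKs back, in stress, in senescence and in lasting exit from the cycle. In the adult cord most neurons do not divide, while after injury microglia, infiltrating leukocytes, astrocytes, oligodendrocyte precursors, ependyma and fibroblasts are known to do so. The messages of most replication-dependent histones end in a stem-loop without a poly-A tail, and the labelling kit of the study primes on poly-A, which limits what the array reads of these genes.

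The promoters of 4 genes that moved together and of 1 CDK inhibitor are shown, to set the letters of cell cycle promoters beside the values. All 96 members were matched to RefSeq, and 80 had a promoter window in the table, which runs from 250 bases before the start to 50 bases after it. Motifs were searched on both strands, namely the CCAAT box (CCAAT), the cell cycle homology region (TTTGAA and TTCGAA) and E2F (TTTCGCGC, TTTGGCGC and TTTCCCGC). In the 250 bases before the start printed here, 5′ to 3′ on the strand of the gene, capitals mark every match of these motifs on either strand. The windows are those of RefSeq on GRCr8, at chr2:33655226-33655475 on the minus strand for Ccnb1, chr20:19265043-19265292 on the plus strand for Cdk1, chr10:84473094-84473343 on the minus strand for Top2a, chr19:13488563-13488812 on the plus strand for Mcm5 and chr20:7150682-7150931 on the plus strand for Cdkn1a.
Ccnb1: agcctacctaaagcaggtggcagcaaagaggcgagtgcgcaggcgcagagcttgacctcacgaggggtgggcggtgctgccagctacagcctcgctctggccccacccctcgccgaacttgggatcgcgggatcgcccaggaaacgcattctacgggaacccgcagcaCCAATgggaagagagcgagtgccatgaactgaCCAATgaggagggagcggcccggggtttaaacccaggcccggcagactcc
Cdk1: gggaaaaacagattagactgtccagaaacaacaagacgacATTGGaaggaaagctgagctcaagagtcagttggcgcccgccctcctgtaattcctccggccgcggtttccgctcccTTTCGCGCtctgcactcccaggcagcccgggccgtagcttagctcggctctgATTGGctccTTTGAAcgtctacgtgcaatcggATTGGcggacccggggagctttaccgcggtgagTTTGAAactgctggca
Top2a: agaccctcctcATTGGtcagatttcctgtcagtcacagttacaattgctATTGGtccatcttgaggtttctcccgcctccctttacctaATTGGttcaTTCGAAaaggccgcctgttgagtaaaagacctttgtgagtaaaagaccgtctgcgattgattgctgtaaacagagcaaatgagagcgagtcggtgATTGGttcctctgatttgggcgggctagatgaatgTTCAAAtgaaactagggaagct
Mcm5: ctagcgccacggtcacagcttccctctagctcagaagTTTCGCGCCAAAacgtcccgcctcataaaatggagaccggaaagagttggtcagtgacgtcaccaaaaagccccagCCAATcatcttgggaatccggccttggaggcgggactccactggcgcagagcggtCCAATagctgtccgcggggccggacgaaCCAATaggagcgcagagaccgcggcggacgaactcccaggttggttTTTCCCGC
Cdkn1a: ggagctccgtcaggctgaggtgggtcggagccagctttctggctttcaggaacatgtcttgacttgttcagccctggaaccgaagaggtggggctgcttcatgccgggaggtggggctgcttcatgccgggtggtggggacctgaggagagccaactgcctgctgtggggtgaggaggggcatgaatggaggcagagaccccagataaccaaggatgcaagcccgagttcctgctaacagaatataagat

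Ccnb1 held 2 CCAAT boxes in this window. Cdk1 held 3 CCAAT boxes, 2 cell cycle homology matches and 1 E2F match, and Top2a held 4 CCAAT boxes and 2 homology matches. Mcm5 held 3 CCAAT boxes and 3 E2F matches, of which the first pair shares bases in the run TTTCGCGCCAAA. The window of Cdkn1a held none of these letters. Over the whole windows of 300 bases, a CCAAT box stood in 64.3% of the 28 mitosis genes with a window, in 94.1% of 17 histones, in 80% of 10 replication genes and in 12.5% of 8 CDK inhibitor genes, against 37.8% of all 33469 promoters. A homology match stood in 53.6% of the mitosis genes, 52.9% of the histones, 40% of the replication genes and 19.5% of all promoters. An E2F match stood in 50% of the 10 replication genes, 7.14% of the mitosis genes, 11.8% of the histones and 1.79% of all promoters. The other roles held no E2F match. Of the 21851 protein-coding promoters, 38.4% held a CCAAT box, 18.3% a homology match and 2.37% an E2F match. These are letters in a window and not sites of binding.

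For 16 of the 28 arrays the deposited files name different samples, and this bears on every result here. A normalized column could be traced to a single scanner file by its ranks (Spearman correlation of 1), but in 16 cases that file was deposited for another sample, among them all 4 arrays of T1_NPC and none of T2_NPC. The comparisons below follow the value table, whose columns carry the sample names. The 12 undisputed arrays hold a single array of T1 and of T4, 2 each of T0, T2 and T8, 4 of T2_NPC and none of T1_NPC, so that a lone array was assumed to vary like the other groups. With them, 51 members differed between T2 and T0 and 53 between T8 and T0. No share of all gene names stands beside these counts. In the same arrays the median log2 fold change of the 32 mitosis genes against T0 was 1.64, 0.80, 0.59 and 0.40 at T1, T2, T4 and T8. That of the 15 replication genes was 1.23, 0.80, 0.46 and 0.46. When each scanner file was instead given to the sample it was deposited for, limma called no member in any comparison. In that arrangement Ccnb1 differed between T1 and T0 by 0.76 (adjusted p = 0.834, limma). The time-course arrays fall into 2 scan sessions by the outputs they match, each with arrays of all 5 groups. All time-course arrays of session 1 are undisputed, and all those of session 2 are disputed. With group held fixed, 38.4% of all gene names and 39 of the 96 members differed between the sessions. In this difference, session and dispute cannot be told apart. The transplanted groups were scanned in a session of their own, T1_NPC on 1 slide and T2_NPC on another, so slide, session and transplantation cannot be told apart. Replicate 2 of T1_NPC stood apart, with a median Spearman correlation of 0.972 with the others of its group, against 0.98 to 0.988 for the other arrays.

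Most mitosis and replication genes were higher at 1 week and stood nearer to T0 at 8 weeks. Of the 96 members, 54 were higher and 11 lower at T1 than at T0, while 44.1% of all gene names differed (19.1% higher and 25.1% lower). At T2 the counts were 47 and 11, with 40.0% of all names called (17.7% and 22.2%). At T4 they were 44 and 16, with 38.5% called (17.5% and 21.0%), and at T8 41 and 18, with 39.7% called (18.2% and 21.5%). The median log2 fold change of the members at T1 was 0.58, against -0.10 over all gene names. At all 4 times 37 members were higher and 9 lower, and 6 were higher at T1 and not called later. Not called at any time were 22 members, among them Cdc7, Rrm2b, Cdc25a, Cdc25b, Cenpl and 8 histones. These comparisons share the T0 samples. In bulk tissue, more cells of a dividing type and more RNA of these genes per cell cannot be told apart.

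**Figure D1:**
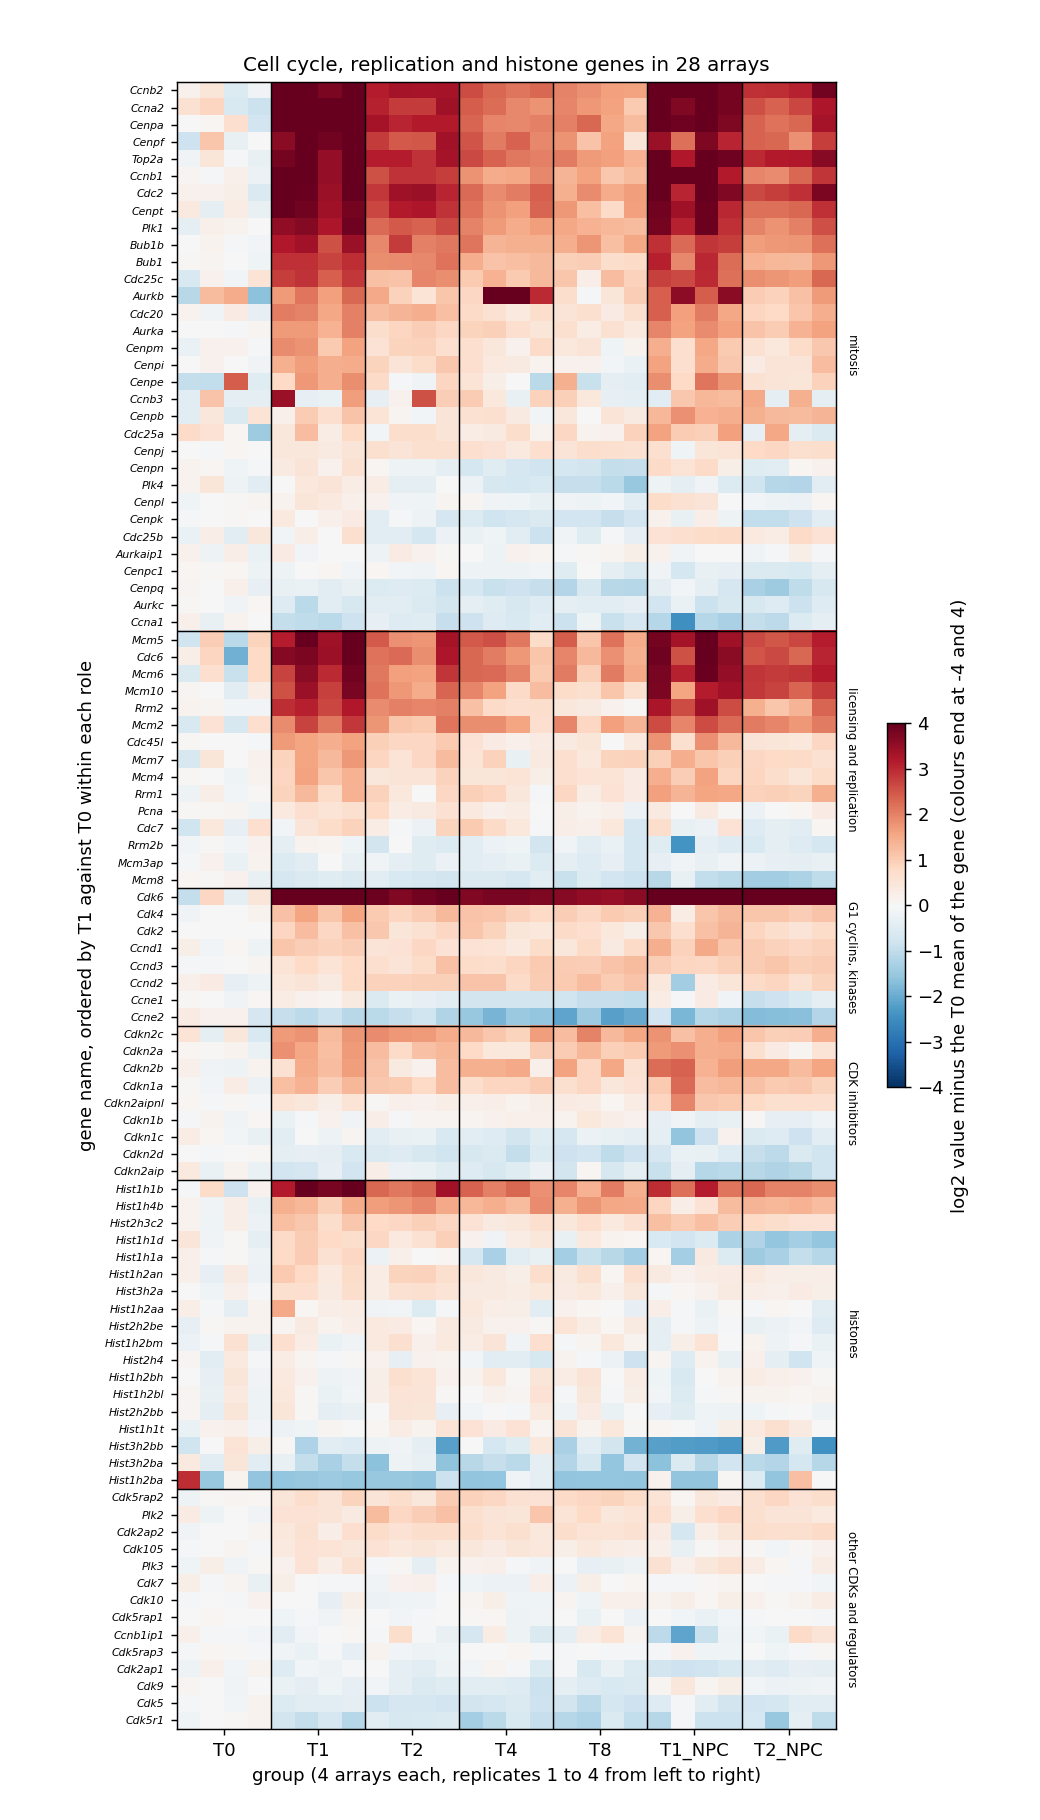
Log2 value of each of the 96 members minus its T0 mean, on each of the 28 arrays, with arrays in columns by group and genes in rows by role and then by the difference between T1 and T0. The upper rows of the mitosis and replication blocks are the deepest red in T1 and T1_NPC and grow paler from T2 to T8, while 10 of the 18 histones were not called at T1 and stay pale in most samples.

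Cyclins, kinases and centromere proteins of mitosis had the largest median change of the 6 roles at T1. Of the 32 genes, 21 rose and 2 fell by T1, while T2 had 17 and 2, T4 had 16 and 6, and T8 had 15 and 7, with median log2 fold changes of 1.54, 0.83, 0.55 and 0.50. Ccnb1, the cyclin that carries cells into mitosis, had log2 values of 7.24, 7.04, 7.33 and 6.89 in the 4 samples of T0 and of 11.21, 11.15, 10.63 and 11.16 in T1. They were 9.67, 10.002, 10.01 and 9.89 in T2, 8.93, 8.61, 8.69 and 9.06 in T4 and 8.47, 8.74, 8.22 and 8.39 in T8. No sample of any injured group reached down to the T0 samples, and the T1 samples lay above those of T2, T4 and T8. The rise at T1 was 15.0-fold (log2 fold change of 3.91 ± 0.21, SE, n = 4 against 4, limma adjusted p = 4.96e-13), and at T8 2.51-fold (1.33 ± 0.21, adjusted p = 1.56e-05).

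Cdc2, the kinase that cyclin B binds, had values of 9.26, 9.28, 9.33 and 8.53 in T0 and of 13.18, 13.05, 12.55 and 13.11 in T1. In T8 they were 10.50, 10.98, 10.58 and 10.75. The fourth T0 sample was the lowest, and even the lowest T8 sample was above all T0 samples. The log2 fold changes of Cdc2 were 3.88, 3.17, 2.15 and 1.61 at T1, T2, T4 and T8. Top2a, the topoisomerase that untangles sister chromatids, had values of 5.94, 6.56, 6.01 and 5.79 in T0, 9.89, 10.31, 9.59 and 10.39 in T1 and 8.16, 7.76, 7.71 and 7.46 in T8. Again the 3 groups did not overlap. The log2 fold changes of Top2a were 3.97, 3.13, 2.28 and 1.70 at the 4 times. The same descending order was seen in Ccnb2 (4.27, 3.27, 2.34 and 1.76), in Ccna2, the cyclin of S phase and G2 (4.24, 3.02, 2.09 and 1.58), and in Plk1, the polo kinase of mitotic entry (3.59, 2.42, 1.71 and 1.38). It was also seen in Cenpa, the histone variant that marks centromeres (4.17, 3.18, 2.05 and 1.79), of which 1 of the 4 T0 arrays was well above background. All of these values had an adjusted p under 0.05.

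**Figure D2:**
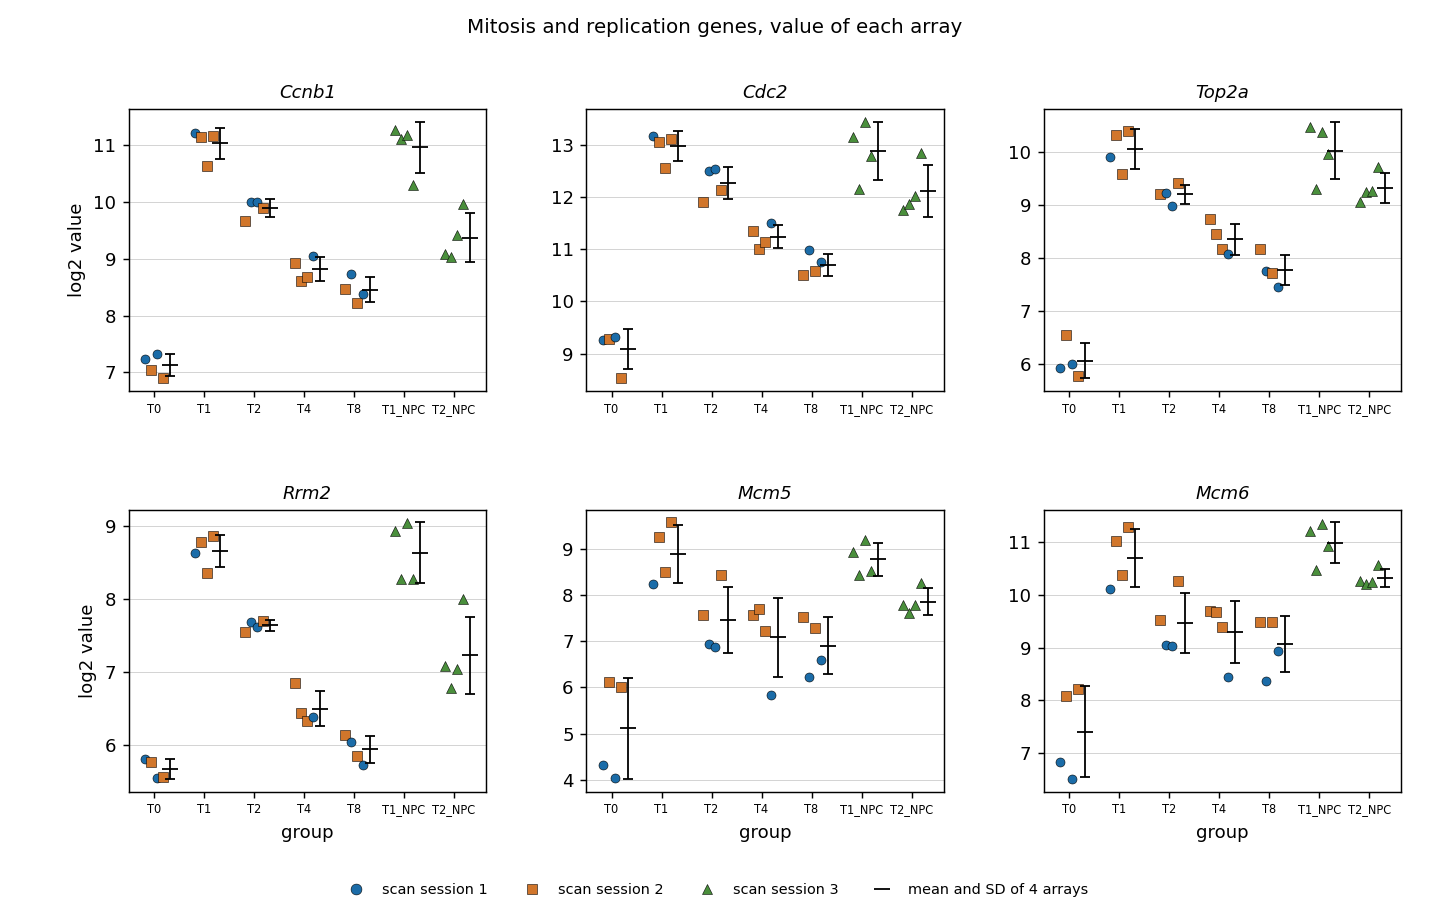
Log2 values of Ccnb1, Cdc2, Top2a, Rrm2, Mcm5 and Mcm6 on each array by group, with the scan session as marker and the mean and SD of 4 arrays beside the points. All injured groups lie above T0 for Ccnb1, Cdc2 and Top2a, while the T0 points of Mcm5 and Mcm6 split by scan session and Rrm2 at T8 overlaps T0.

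Genes of the spindle checkpoint and of the kinetochore were also higher at T1. Bub1 and Bub1b, kinases of the checkpoint, rose by 2.87 and 3.14 on the log2 scale at T1 and were still higher by 0.85 and 1.50 at T8. Cdc20, the activator of the anaphase-promoting complex, rose by 1.90 at T1 and by 0.53 at T8, and Aurka, the aurora kinase of the spindle poles, by 1.71 and 0.48. Cenpf, a kinetochore protein of late cycle, rose by 4.02 at T1 and differed by 0.74 between the scan sessions. It was well above background on all arrays of only 6 of the 7 groups, and its T0 mean was 3.37. The member Cenpe, the kinetochore motor, is less settled. Its T0 values were 3.60, 3.57, 6.99 and 4.08, and 1 of them exceeded every T1 sample. Its rise at T1 was 1.46 (adjusted p = 0.0439, limma), but it was 0.05 in session 1, where 1 T1 array stood against T0 samples 1 and 3, and 2.41 in session 2, where 3 stood against T0 samples 2 and 4.

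Aurkb, the aurora kinase of the chromosomal passenger complex, did not follow the common order. Its values were 4.70, 7.07, 7.30 and 4.18 in T0, 7.52, 7.96, 7.45 and 8.09 in T1 and 6.64, 10.02, 9.95 and 8.80 in T4. In T4, 3 samples were above all T1 samples, and the first lay below them and within the range of T0. The log2 fold change was 1.94 at T1 (adjusted p = 0.0144) and 3.04 at T4 (adjusted p = 0.000439), with a SE of 0.63. At T2 and T8 Aurkb was not called.

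Not all mitosis genes rose. Cenpq and Cenpk, members of the constitutive centromere network, were lower at T8 by 1.01 and 0.81 on the log2 scale, and Plk4, the kinase of centriole duplication, fell by 1.11 at T8 without a call at T1 (0.30, adjusted p = 0.249). Plk4 had values of 7.44, 7.78, 7.11 and 6.87 in T0 and 6.38, 6.38, 6.23 and 5.77 in T8, and no T8 sample reached a T0 sample. Cenpn, which binds the nucleosome of the centromere, was called in both directions, higher by 0.42 at T1 and lower by 0.82 at T8. Aurkc and Ccna1, known mainly from the germ line, were lower at T1 by 0.67 and 0.98. Ccnb3 was not well above background on any array of 6 groups, nor on all arrays of the remaining group, and was not called.

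Genes of licensing and replication were mostly higher at 1 week. Of the 15, 11 rose and 2 fell both at T1 and T2, while T4 had 8 and 2, and T8 had 6 and 2, with medians of 1.37, 0.87, 0.53 and 0.50. Mcm5, a subunit of the replicative helicase, had values of 4.31, 6.11, 4.03 and 6.01 in T0, 8.24, 9.25, 8.50 and 9.57 in T1 and 7.53, 6.22, 7.29 and 6.58 in T8. The T1 samples were above both other groups, while T0 samples 2 and 4 were higher than samples 1 and 3. This split follows the scan session, and Mcm5 was higher by 1.31 in session 2 than in session 1 with group held fixed (adjusted p = 1.76e-05, limma). The rise of Mcm5 at T1 was 3.77 ± 0.47 (SE) on the log2 scale (limma adjusted p = 6.94e-07) over all arrays. It was 4.07 within session 1, which holds 1 T1 array, and 3.04 within session 2, which holds 3. Mcm5 was well above background on all arrays of only 6 of the 7 groups, and its T0 mean was 5.12.

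Mcm6 and Mcm2, partners of Mcm5 in the helicase, showed the same split, with session differences of 1.02 and 0.92. Their rises at T1 were 3.29 and 2.38, or 2.75 and 1.92 within session 2. Cdc6, which loads the helicase, rose by 3.71 at T1 and 1.62 at T8, though it was well above background on 1 of 4 T0 arrays. It also differed by 0.79 between the sessions. Mcm10, an initiation factor, rose by 3.13 at T1 and Cdc45l, a helicase cofactor, by 1.58. Neither was called at T8. Mcm10 was well above background on all arrays of only 6 of the 7 groups, and its T0 mean was 3.19. Among the other subunits, Mcm4 rose by 1.24 and Mcm7 by 1.37 at T1.

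Rrm2, the cell cycle subunit of ribonucleotide reductase, was not called at T8. It had values of 5.80, 5.76, 5.54 and 5.56 in T0 and 8.63, 8.78, 8.35 and 8.86 in T1. They were 7.54, 7.69, 7.61 and 7.69 in T2, 6.85, 6.43, 6.32 and 6.38 in T4 and 6.14, 6.04, 5.84 and 5.72 in T8. From T1 to T8 each group lay below the one before it without overlap, and T8 overlapped T0. The log2 fold changes of Rrm2 were 2.99, 1.97, 0.83 and 0.27, the last without a call (adjusted p = 0.338). Rrm1, its partner subunit, rose by 1.07 at T1, and Pcna, the sliding clamp, by 0.56 at T1 and 0.52 at T2. The p53-inducible subunit Rrm2b was not called at any time. Mcm8 and Mcm3ap were lower at all 4 times, Mcm8, a helicase of repair, by 0.58 at T1 and 0.76 at T8.

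**Figure D3:**
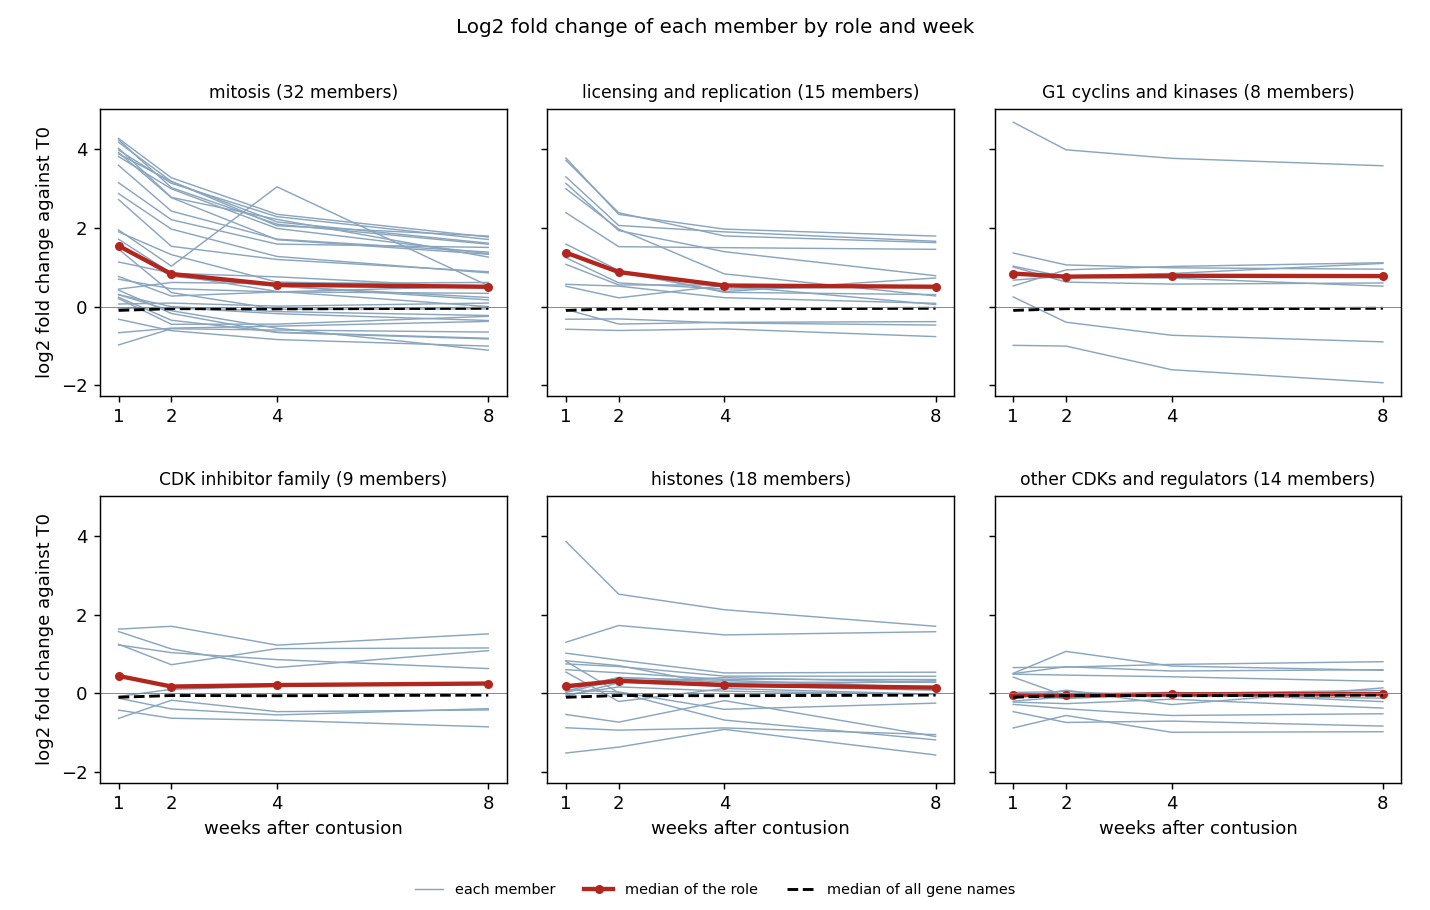
Log2 fold change against T0 of each member (thin lines), of the median of its role (thick line) and of the median of all gene names (dashed line), at 1, 2, 4 and 8 weeks after contusion. The medians of the mitosis and replication roles fall from 1.54 and 1.37 at 1 week to 0.50 at 8 weeks, and the median of the G1 role stays near its first value.

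The G1 cyclins and kinases kept a median log2 fold change that ranged little, from 0.84 at T1 to 0.77 at T8. Of the 8, 5 were higher and 1 lower at T1, and 6 were higher and 2 lower at T2, T4 and T8. Cdk6, a kinase of the D cyclins, was not well above background on any T0 array, with values of 1.78, 3.54, 2.35 and 3.19. It was bright in T1, with 7.35, 7.50, 7.26 and 7.47, and in T8, with 6.37, 6.25, 6.20 and 6.34. The samples of T1 and T8 lay far above those of T0 and apart from each other. With T0 held at the lowest signal that was well above background, Cdk6 was at least 10.3-fold higher at T1 (limma adjusted p = 7.19e-13) and at least 4.8-fold higher at T8 (adjusted p = 1.28e-10).

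Ccnd3, a D cyclin, had values of 9.99, 9.98, 10.08 and 10.17 in T0, 10.59, 10.84, 10.61 and 10.86 in T1 and 11.06, 11.03, 11.20 and 11.32 in T8. These 3 groups stood in ascending order without overlap, and the log2 fold changes were 0.67, 0.77, 0.84 and 1.09 at T1, T2, T4 and T8. Ccnd2, a further D cyclin, was called from T2 on, at 0.93, 1.02 and 1.11. Ccnd1 rose by 1.00 at T1 and by 0.60 at T8, and Cdk4 and Cdk2, the partner kinases of D and E cyclins, by 1.36 and 1.02 at T1.

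The E cyclins, which act at the entry into S phase, were lower. Ccne2 had values of 8.99, 8.81, 8.82 and 7.97 in T0, 7.72, 7.59, 7.80 and 7.54 in T1 and 6.53, 7.20, 6.49 and 6.63 in T8. All T1 samples were below all T0 samples and all T8 samples below all T1 samples. It fell by 0.99 at T1 and by 1.94 at T8 on the log2 scale (adjusted p = 0.000598 and 1.68e-07, limma). Ccne1 was not called at T1 (0.24, adjusted p = 0.106) and fell by 0.90 at T8.

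**Figure D4:**
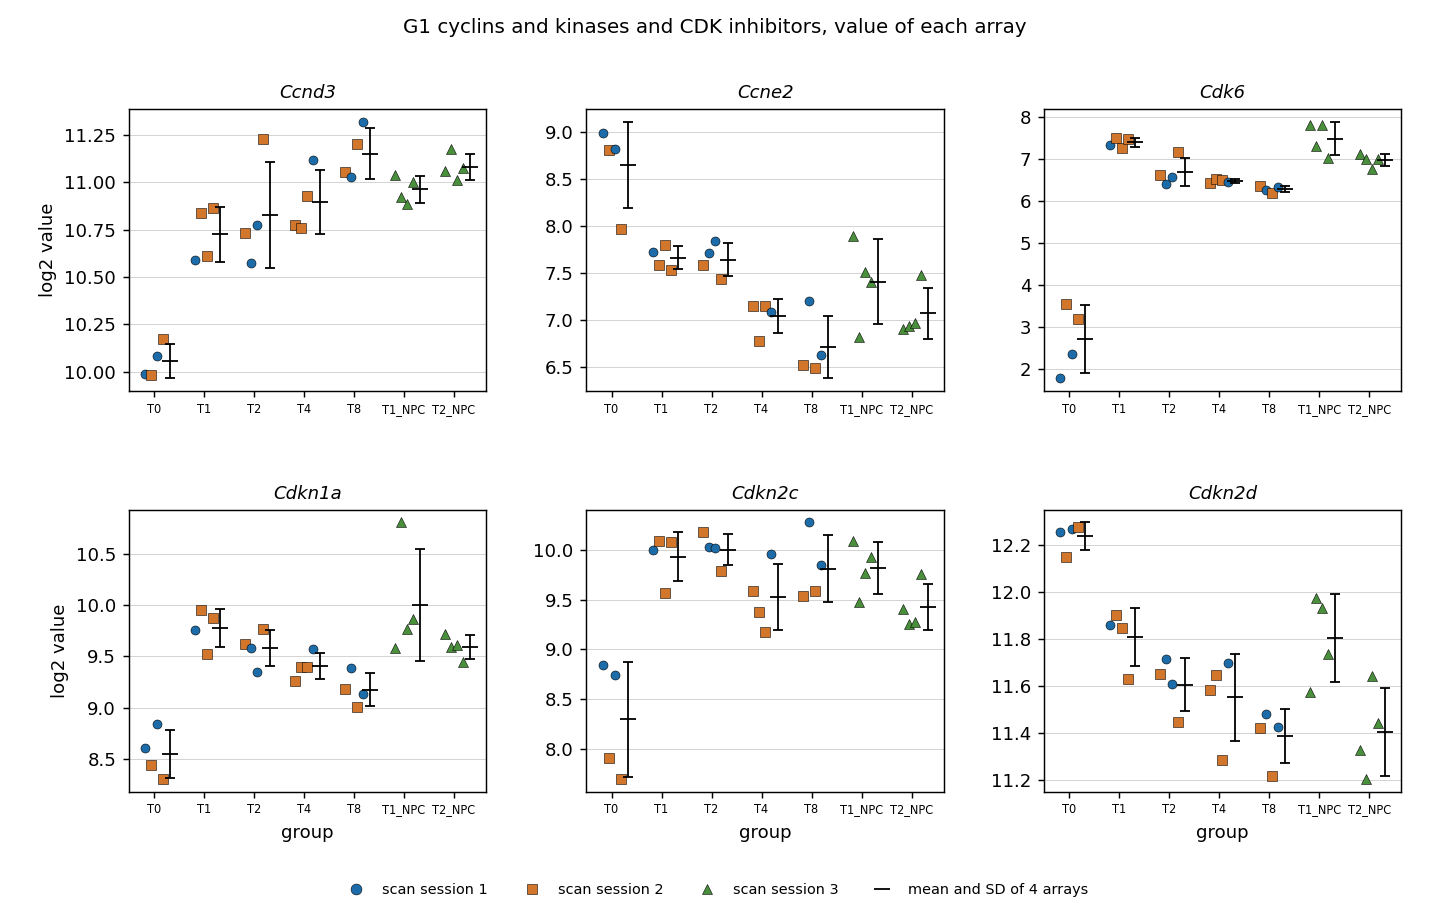
Log2 values of Ccnd3, Ccne2, Cdk6, Cdkn1a, Cdkn2c and Cdkn2d on each array by group, with the scan session as marker and the mean and SD of 4 arrays. Ccnd3 climbs and Ccne2 and Cdkn2d descend from T0 to T8, while Cdk6, Cdkn1a and Cdkn2c are above T0 in every injured group.

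Several inhibitors of CDKs rose in the same weeks. Of the 9 genes named for them, 5 were higher and 2 lower at T1, while T2 had 3 and 1, and T4 and T8 each had 4 and 1. Cdkn1a, the p53 target p21, had values of 8.61, 8.44, 8.84 and 8.30 in T0, 9.76, 9.95, 9.52 and 9.87 in T1 and 9.18, 9.38, 9.003 and 9.13 in T8. The injured samples were above all T0 samples, and the T1 samples above the T8 samples. It rose by 1.23 ± 0.18 (SE) at T1 (adjusted p = 7.6e-06, limma) and by 0.63 at T8. Cdkn2c, the INK4 inhibitor p18, was higher by 1.63, 1.70, 1.23 and 1.51 at the 4 times.

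Cdkn2a, the locus of p16 and of Arf, a marker of senescence, had values of 8.19, 8.16, 8.24 and 7.82 in T0 and 9.93, 9.64, 9.32 and 9.81 in T1. In T8 they were 9.12, 9.42, 9.07 and 9.14. No injured sample in T1 or T8 overlapped T0, and the log2 fold changes were 1.57, 1.13, 0.66 and 1.08. Cdkn2b, the inhibitor p15, was higher by 1.25 at T1 and 1.15 at T8, and it also differed by 0.74 between the scan sessions. Cdkn2d, the inhibitor p19, was lower at each time, by 0.43, 0.63, 0.68 and 0.85. The Cip/Kip members Cdkn1b and Cdkn1c were not called at any of the 4 times, with log2 fold changes of -0.08 at T1 and 0.25 at T8 for Cdkn1b.

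At T1 10 of the 18 histone genes did not pass the test. In all, 7 were higher and 1 lower at T1, while T2 had 6 and 1, and T4 and T8 each had 6 and 2. The median at T1 was 0.18. Hist1h1b, a linker histone of H1, was the exception in size. It had values of 5.77, 6.57, 4.996 and 5.997 in T0, 9.02, 9.91, 9.62 and 10.22 in T1 and 7.79, 7.22, 7.88 and 7.26 in T8. The 3 groups did not overlap, and Hist1h1b rose 14.5-fold at T1 (log2 fold change of 3.86 ± 0.31, SE, adjusted p = 8.13e-10, limma). It was still higher by 2.52, 2.12 and 1.70 at the later times, and it differed by 0.68 between the sessions.

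Hist1h4b, a gene of histone H4, was higher by 1.30, 1.72, 1.49 and 1.57 at the 4 times and thus did not share the decline of Hist1h1b. Hist2h3c2, of H3, rose by 1.02 at T1 and Hist1h1d, of H1, by 0.83, the latter with no call at T4 or T8. Hist1h1a, a further H1 gene, was called in both directions, higher by 0.81 at T1 and lower by 1.18 at T8. Hist3h2ba, of H2B, was lower at all 4 times, by 0.87 at T1, with samples that overlapped T0 at T1, T2 and T4. It was also lower by 0.87 in session 2 than in session 1 with group held fixed (adjusted p = 2.31e-06, limma). Hist1h2ba was not well above background on any array of 5 groups and Hist3h2bb on any of 4, and neither was called after injury.

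Among the other CDKs and regulators the counts were even, with 5 higher and 3 lower at T1 of 14 and 4 higher and 4 lower at T8. Cdk5 and its activator Cdk5r1, known mainly from neurons, fell by 0.46 and 0.88 at T1 and by 0.83 and 0.97 at T8. Plk2, a stress-responsive polo kinase, was higher by 0.51, 1.07, 0.69 and 0.59. Cdk9, the kinase of transcription elongation, fell by 0.28 at T1 and 0.52 at T8. Cdk7, Cdk10, Cdk5rap1 and Cdk5rap3 were not called at any time.

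A separate list held other known cell cycle genes. Of 94 found on the array, 72 rose and 5 fell by T1, while T2 had 60 and 6, T4 had 49 and 7, and T8 had 41 and 9, with medians of 1.605, 0.96, 0.56 and 0.41. Kif2c, a kinesin that depolymerises microtubules, rose by 4.79 at T1, Melk, a kinase of dividing progenitors, by 3.90 and Pbk, a mitotic kinase, by 3.82. Anln, Zwint and Dut were the largest falls at T1, by 1.38, 1.08 and 1.01. Of 12 arrest genes, 9 were higher at T1 and 8 at T8 with none lower, among them Gadd45g (1.64 at T1 and 1.70 at T8) and Gadd45a (1.19 and 1.63, respectively), stress sensors that restrain the cycle.

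Markers of cell types shifted in the same samples. Of 12 microglia and macrophage markers, 11 were higher at T1, and the mean log2 level of the list ran from 9.93 to 10.30 in T0 and from 12.48 to 13.05 in T1. At T8 it ran from 11.89 to 12.31. Of 9 T cell markers all were higher at T1, of 7 fibroblast and pericyte markers 6 were higher, and of 11 neuron markers 10 were lower, with the neuron list at 12.22 to 12.51 in T0 and 10.22 to 11.17 in T1. Of 10 markers of neural progenitors and ependyma 2 were higher and 3 lower. Other lists moved otherwise. The oligodendrocyte precursor list ran from 12.50 to 12.83 in T0 and from 12.51 to 12.72 in T1. The astrocyte list ran from 12.73 to 12.95 in T0 and from 12.29 to 12.53 in T1. The Schwann cell list ran from 7.58 to 8.13 in T0, 9.84 to 11.33 in T1 and 12.58 to 13.05 in T8. The part of these cells in the changes of the members was not tested.

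Between T2 and T1, 15 members were lower and none higher, against 1.48% of all gene names called (0.815% higher and 0.665% lower). They were 11 mitosis genes, with Plk1 (-1.16), Ccnb1 (-1.15) and Aurka (-0.87) among them, and Rrm2, Mcm4, Ccne1 and Hist1h1b. This count ran from 0 to 33 under the alternatives. Between T4 and T2 only Ccnb1 (-1.07, adjusted p = 0.0444) and Rrm2 (-1.14, adjusted p = 0.0309) were lower by limma, against 0.0761% of all names (0.0507% higher and 0.0254% lower), and leaving out any of 7 of the 8 arrays lost both calls. No member was called between T8 and T4 (0.0902% of all names, 0.0874% higher and 0.00282% lower). There 11 of the 96 members had an unadjusted p under 0.05, as had 1716 of the 35469 gene names.

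Between T8 and T1, 39 members were lower and 1 was higher, against 9.87% of all gene names (5.45% higher and 4.42% lower). Of the mitosis genes 21 were lower and none higher, with a median of -1.39, and of the replication genes 8 were lower. Cenpf fell by 2.76, Rrm2 by 2.72, Ccna2 by 2.65 and Ccnb1 by 2.58 (adjusted p = 2.4e-08). The higher member was Ccnd3 (0.43, adjusted p = 0.0204). Over the same interval 2 of 12 microglia and macrophage markers and 0 of 9 T cell markers were called lower. The mean log2 level of the microglia and macrophage list still ran lower, from 12.48 to 13.05 in T1 and from 11.89 to 12.31 in T8. The T cell list ran from 7.15 to 7.84 in T1 and from 7.29 to 7.67 in T8. The fibroblast and pericyte list ran from 13.05 to 13.83 and from 12.27 to 13.04, respectively. The part of these cells in the fall of the members was not tested. With the undisputed arrays, of which 1 is of T1, the median log2 fold change of the mitosis genes was -1.43 between T8 and T1 and -0.78 between T2 and T1. That of the replication genes was -0.57 and -0.65.

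With transplantation the linker histones Hist1h1d and Hist1h1a were lower at both times and Cenpb was higher at both. Before normalization the median signal of an array ran from 105 to 127 in T1_NPC and from 120 to 136 in T2_NPC. It ran from 134 to 207 in the time course, and its part in these differences was not tested. Against T1, 3 members were higher and 10 lower in T1_NPC, with 11.9% of all gene names called (5.45% higher and 6.46% lower). Of the 32 mitosis genes 1 was higher and 1 lower, of the 15 replication genes none was called, and of the 18 histones 7 were lower. Ccnb1 differed by -0.07 and Top2a by -0.03 between T1_NPC and T1, both without a call. The difference between T2_NPC and T2 was -0.52 for Ccnb1 and 0.12 for Top2a, again without a call. Against T2, 4 members were higher and 12 lower in T2_NPC, with 9.47% of all names called (4.62% higher and 4.85% lower), among them 3 higher and 3 lower mitosis genes, 2 lower replication genes and 3 lower histones.

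Hist1h1d, a linker histone, had the smallest adjusted p of the members in both transplant comparisons. Its values were 10.21, 10.44, 10.25 and 10.15 in T1 and 8.82, 8.68, 8.89 and 8.17 in T1_NPC. They were 10.27, 9.84, 10.06 and 10.39 in T2 and 8.23, 7.88, 8.06 and 7.90 in T2_NPC. The transplanted samples were below all samples of the time-matched group and also below all of T0, whose lowest was 9.05. It fell by 1.62 ± 0.19 (SE, n = 4 against 4, adjusted p = 6.06e-06, limma) in T1_NPC and by 2.12 ± 0.19 (adjusted p = 1.4e-07) in T2_NPC. Between scan sessions 1 and 2 it differed by -0.15 (adjusted p = 0.371), and with the undisputed arrays the fall in T2_NPC was 1.93 (adjusted p = 0.00112). All transplanted samples were scanned in a session of their own, so neither value separates transplantation from session.

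**Figure D5:**
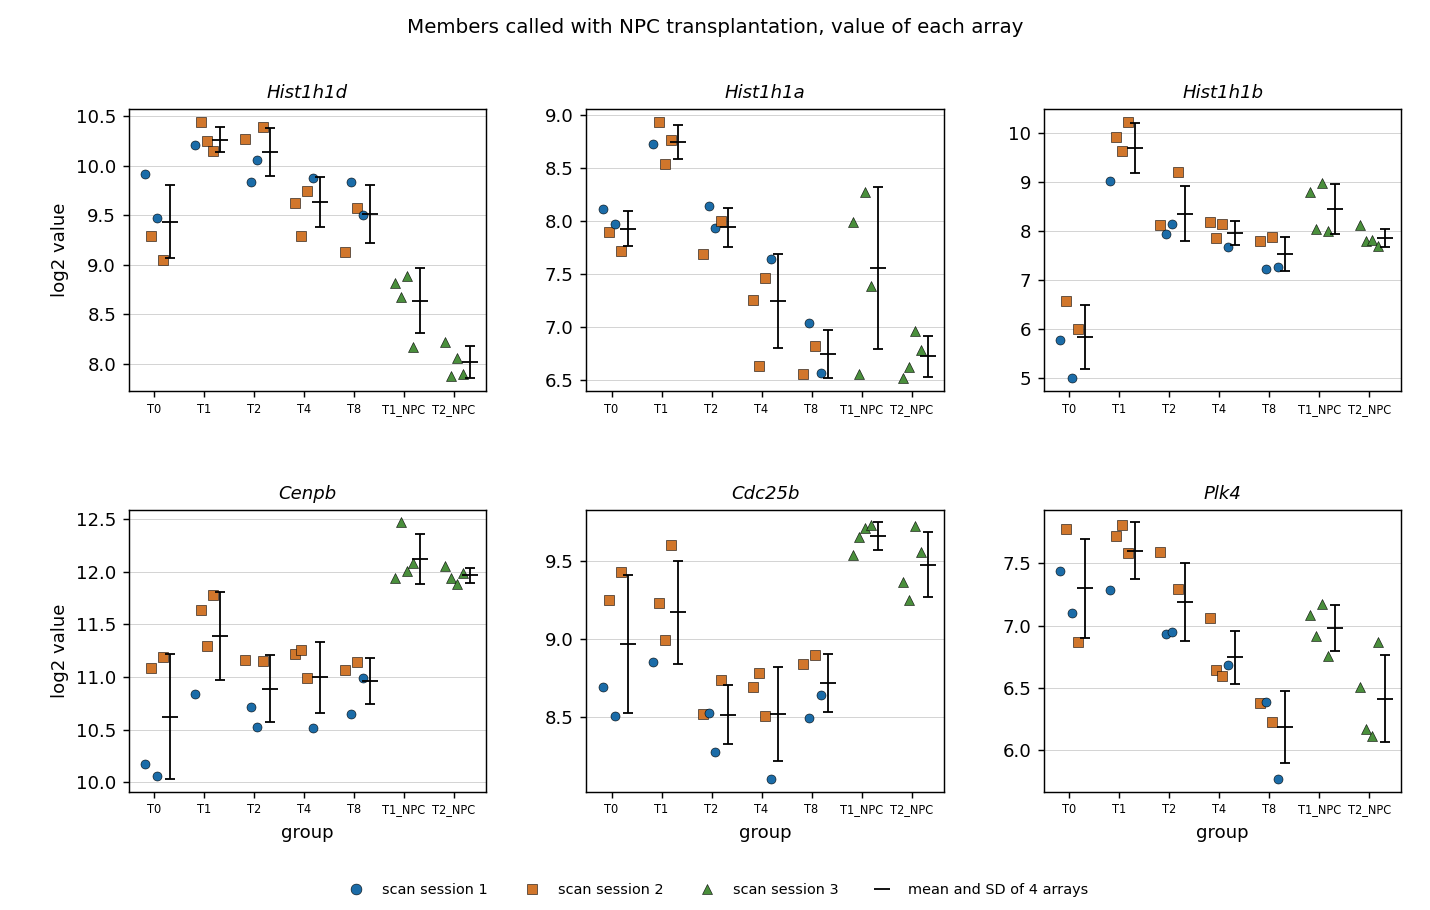
Log2 values of Hist1h1d, Hist1h1a, Hist1h1b, Cenpb, Cdc25b and Plk4 on each array by group, with the scan session as marker and the mean and SD of 4 arrays. Both transplanted groups, all in session 3, lie below every other group for Hist1h1d and above every other group for Cenpb, and the T0 points of Cenpb split by session.

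Hist1h1a had values of 8.73, 8.93, 8.54 and 8.76 in T1 and 7.99, 6.55, 8.28 and 7.39 in T1_NPC. They were 7.69, 8.14, 7.93 and 7.998 in T2 and 6.52, 6.63, 6.96 and 6.78 in T2_NPC. Replicate 2 was the lowest of T1_NPC, and neither transplanted group overlapped its time-matched group. The falls were 1.19 in T1_NPC (adjusted p = 0.00405) and 1.22 in T2_NPC (adjusted p = 0.00394). Hist1h1b was lower by 1.25 in T1_NPC (adjusted p = 0.0119), and by 1.11 without replicate 2. In T2_NPC it was not called (-0.49). Hist2h2be, of H2B, was lower by 0.39 and 0.58, and Hist1h4b and Hist3h2a were called in T1_NPC, lower by 0.55 and 0.46 with overlapping samples, and not in T2_NPC. Hist3h2bb completed the 7 but was not well above background in any T1 or T1_NPC sample. Hist1h1a, Hist1h4b, Hist2h2be and Hist3h2a in T1_NPC were named after their values were seen.

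Cenpb, which binds the centromere repeat, was higher in both transplanted groups. Its values were 10.84, 11.63, 11.30 and 11.78 in T1 and 11.94, 12.47, 12.004 and 12.08 in T1_NPC. They were 11.16, 10.72, 10.53 and 11.15 in T2 and 12.05, 11.94, 11.88 and 11.99 in T2_NPC. All transplanted samples lay above the time-matched ones, by 0.73 at 1 week (adjusted p = 0.0486) and 1.07 at 2 weeks (adjusted p = 0.00665). Cenpb also differed between sessions 1 and 2 of the time course, by 0.64 (adjusted p = 5.32e-05), and without replicate 2 of T1_NPC the rise at 1 week was not called (0.62, adjusted p = 0.146).

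Cdc25b, a phosphatase that activates CDKs, was higher by 0.96 in T2_NPC (adjusted p = 0.00273) and differed by 0.44 between the sessions. Plk4 was lower by 0.62 in T1_NPC and by 0.78 in T2_NPC, the first close to the threshold (adjusted p = 0.0496 and 0.0178, limma). Cdkn2a was lower by 0.73 in T2_NPC, with values of 9.34, 8.87, 9.27 and 9.44 in T2 and 8.73, 8.43, 8.20 and 8.65 in T2_NPC, and it was not called in T1_NPC. The T2 and T2_NPC samples did not overlap. Pcna and Mcm8 were lower in T2_NPC by 0.47 and 0.65, and Aurka was higher by 0.44 (adjusted p = 0.0491, limma). Cdkn2aipnl, of the family of binding partners of Arf, was higher by 0.79 in T1_NPC and 0.53 in T2_NPC, and Cdkn2aip was lower by 0.88 in T2_NPC. The array name Cdk105, whose accession is that of Nsa2 in RefSeq, a ribosome biogenesis factor and not a CDK, was lower in both groups, by 0.46 and 0.42, while Cdk2ap1 (-0.52) and Cdk9 (0.50) were called in T1_NPC and Plk2 (-0.55), Cenpc1 (-0.51) and Cenpk (-0.45) in T2_NPC.

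Of the 13 members called in T1_NPC, 5 also differed between sessions 1 and 2, and of the 16 in T2_NPC, 3 did. Among all 96 members 39 differed between these sessions, as did 38.4% of all gene names, and neither session holds a transplanted array. Without replicate 2 of T1_NPC, 8 members were called, 2 higher and 6 lower. The test of whether the graft changed a member differently at the 2 times called none by limma (0.299% of all gene names, 0.172% higher and 0.127% lower). There 4 of the 96 members had an unadjusted p under 0.05, as had 3969 of the 35469 gene names. Of the other cycle genes, 1 was higher and 5 lower in T1_NPC and 2 higher and 5 lower in T2_NPC. Birc5, of the passenger complex, was lower by 0.71 and 1.00, and Rpa3, of the single-strand binding complex, by 0.81 and 0.75. Of 10 markers of neural progenitors and ependyma, 1 was lower in T1_NPC and 1 higher in T2_NPC. The microglia and macrophage list ran from 11.28 to 12.91 in T1_NPC and from 12.73 to 12.88 in T2_NPC, and its part in these changes was not tested.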

How the data were processed

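Total RNA was labelled with Cy3 and hybridised to 28 single-colour Agilent rat arrays. Per the labels and file headers, the authors extracted spot intensity values with Agilent Feature Extraction 10.7.1.1 (annotation on rn4) and deposited them unnormalized. They also deposited a value table of log2 values, quantile normalized between arrays, which was used here. Its rows were joined to the annotation by feature number. The 1639 control spots were left out, and 43379 spots were averaged to 41012 probes and these to 35469 gene names, with no filter and a pseudocount of 0. Of the members, 34 rest on several probes (137 member probes in all). No called member had probes of opposite sign.

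Group means over the 28 arrays were estimated with limma 3.58.1 in R 4.3.3 (eBayes, 2.26 prior degrees of freedom). Calls had a Benjamini-Hochberg adjusted p under 0.05 over all 35469 gene names, in 11 comparisons. On simulated data made like T1 against T0 for 35469 genes, 82% of added log2 changes of 2 and 49% of changes of 1 were called, and 5.76% of calls were false. The number of arrays limits the precision. Between 74.5% and 82.7% of spots were well above background. The arrays of T1_NPC had 74.5% to 76.4%, and T2 replicate 3 had 75.1%. A "not well above background" group gives a bound from the lowest bright signal per array.

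The members and lists were chosen with earlier results of these data known. Named genes were a fixed set of cycle regulators and, per comparison and role, up to 3 called members with the largest rise and the largest fall, and other members named in the text were chosen after their values were seen. Of 229 genes in the other lists, 202 were found. Replicate numbers did not pair the samples, as same-numbered samples had median correlations of deviations between -0.03 and 0.04. Alternatives were other normalizations, probe rules, sample sets, slide and scan session as blocks and leaving out each array. The normexp alternative (offset 50) used median signals, and session differences per member and a fit without outlier spots were chosen after seeing the data. Promoter windows came from RefSeq on GRCr8, with members matched by accession (81), symbol (14) or synonym (1).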

Additional observations from a re-analysis of the deposited data

Results flagged for a closer look

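Among the cell cycle regulators followed by name, 21 of 280 groups of 4 arrays held an array far from the other 3, and chance flags about 1 group in 20. The array that recurred most was the fourth of T2_NPC, which was high for Ccnb2 (9.53), Bub1 (9.85), Mcm6 (10.56), Rrm1 (8.33) and Ccne2 (7.48). The third array of T1 was low for Ccnb1 (10.63), Cdc20 (10.90), Bub1 (10.80) and Cdkn2c (9.57). These arrays set part of the spread of their groups, and the cause was not tested.

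Cenpe in T0 replicate 3 (6.99) lay above the range of 3.57 to 4.08 of the other T0 arrays, and Ccnd2 in T1_NPC replicate 2 (10.79) lay below 12.51 to 12.67. Cdc2 in T0 replicate 4 (8.53) and Cdkn2d in T0 replicate 2 (12.15) were the lowest of T0. Ccnb1 was low in T1_NPC replicate 4 (10.30) and Ccnb2 in T2 replicate 1 (8.82). Bub1 (10.28) and Mcm4 (6.48) were high in T2 replicate 4, and Bub1b (6.60) was high in T4 replicate 1. Ccne2 was low in T4 replicate 2 (6.78), Cdkn2b in T4 replicate 4 (5.40) and Cdkn2b in T2_NPC replicate 3 (6.47).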

How the results depend on the processing

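The assignment of arrays to samples decided the results. With each scanner file given to the sample it was deposited for, 0 members were called in every comparison, and 31 of 258 named log2 fold changes turned sign. In T1 against T0 these were Aurkb (-0.48), Cdkn1a (-0.23) and Cenpe (-0.26). In T2 against T0 they were Ccne2 (0.042), Ccne1 (0.12), Cdkn1a (-0.054) and Rrm1 (-0.0058), and in T4 against T0 Hist1h1a (0.49). In T2 against T1 they were Ccna2 (0.33), Hist1h1b (0.22), Rrm2 (0.23), Bub1 (0.080), Bub1b (0.26), Ccnb1 (0.16) and Ccnb2 (0.22), and in T4 against T2 Ccnb1 (0.57) and Rrm2 (0.35). In T8 against T1 they were Ccna2 (0.018), Cdk6 (0.65), Cdkn1a (0.26), Bub1b (0.065), Cdc2 (0.18) and Top2a (0.048). In T1_NPC against T1 they were Cdk9 (-0.11), Cdk2ap1 (0.26), Cdk105 (0.25), Cdkn2aipnl (-0.18), Cenpb (-0.15), Plk4 (0.23), Hist1h1d (0.45) and Hist1h1b (0.51).

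No other alternative turned a sign. Session 1 holds the same time-course arrays as the 12 undisputed arrays, which add those of T2_NPC, so these are not separate checks. Both hold 1 array of T1 and 1 of T4, which were assumed to vary like the other groups. Their counts in comparisons with T1 or T4 thus rest on 1 array, and no share of all gene names stands beside them. The undisputed arrays gave 36 members in T4 against T0, 0 in T2 against T1 and in T4 against T2, and 24 in T8 against T1. Session 1 alone gave 34 in T4 against T0, 0 in T2 against T1 and in T4 against T2, and 13 in T8 against T1. Session 2 alone gave 3 in T2 against T1. A required change of 2-fold left 39, 28, 25 and 27 members at T1, T2, T4 and T8 against T0. It left 6 in T2 against T1, 4 in T1_NPC and 3 in T2_NPC. For the counts under the alternatives in this section no share of all gene names is given. The comparison of T2 with T1 (15 members) also moved to 30 with normexp background, to 29 with slide and 33 with session as a fixed block, and to 6 with the compared groups alone. That of T4 with T2 (2 members) moved to 8 with slide and 11 with session as a fixed block, 6 with the time course alone, 1 with the brightest probe per gene and 0 with the compared groups alone. That of T8 with T4 gave 1 with normexp. In T1_NPC, 8 members were called with slide as a random block and 2 with the compared groups alone. The cause was not tested. Replicate numbers did not pair the samples. With the replicate number as a block, 9 members were called in T2 against T1 and 0 in T4 against T2, and the other comparisons stayed within 1.5 times of the counts reported.

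Leaving out each array in turn gave 56 to 63 members at T1, 55 to 60 at T2, 53 to 58 at T4 and 53 to 58 at T8 against T0, 5 to 16 in T2 against T1, 0 to 2 in T4 against T2, 0 to 1 in T8 against T4, 36 to 42 in T8 against T1, 8 to 14 in T1_NPC and 10 to 19 in T2_NPC, and 0 for the difference of the effects. T2 against T1 fell to 5 without T2 replicate 1, 7 without T1 replicate 2, T1 replicate 4 or T2 replicate 3, and 9 without T1 replicate 1. T1_NPC fell to 8 without T1 replicate 2 or T1_NPC replicate 2, and T2_NPC to 10 without T2 replicate 1. Of 2064 named values without 1 array, 186 lost their call.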
